A study of Mus musculus with 37 samples.

Results

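Retinoic acid target genes were followed through a mouse leukaemia model exposed to 2 retinoids and 2 other lipid compounds. The 8 genes were Cd38, Ccr9, Gprc5a, Tgm2, Asb2, Hic1, Nrip1 and Rai14, taken by name from the 35290 genes of the count files, and all 8 were found. All passed the filter on low counts, which was set over all 37 libraries together and left 15699 genes. The cells were pre-B cells from bone marrow of adult Arf-/- C57BL/6 mice, transformed with the fusion oncogene BCR-ABL1, so every group shared the Arf deletion and the oncogene. They carried either MIG-IK6, a retroviral vector for IK6, a dominant-negative form of the transcription factor Ikaros, or MIG, the same vector with only its green fluorescent protein. Each line was treated with 1 µM ATRA (all-trans retinoic acid), bexarotene, carbacyclin or N-oleoylethanolamine (NOE here), or with the solvent DMSO alone. The 5 IK6 groups were ATRA (4 libraries), bexarotene (3), carbacyclin (3), NOE (4) and DMSO (4). The 5 MIG groups were ATRA (4), bexarotene (3), carbacyclin (4), NOE (4) and DMSO (4), which gave 37 libraries in all. No label says how long treatment lasted or whether replicates came from separate cultures or transductions, so the p-values cover only the spread among these libraries, and that spread may be technical.

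Retinoic acid acts through the nuclear receptors RARα, RARβ and RARγ, which bind DNA as pairs with an RXR partner at direct repeats of a short half-site and switch from a corepressor to a coactivator complex when the ligand binds. ATRA is the natural ligand of the RARs, and bexarotene is a synthetic ligand of the RXRs. Carbacyclin is a stable analogue of prostacyclin, and NOE is a fatty acid amide, and both also activate receptors of the PPAR family, which pair with RXR as well. CD38 is a classical retinoic acid target of blood cells, and retinoids have long been used to make leukaemic promyelocytes mature.

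RefSeq promoters of build GRCm38.p6, from 250 bases before to 50 bases after a start site, matched 6 of the 8 genes with 10 promoters, and none was matched for Tgm2 or Gprc5a. The count files use build mm9, so these coordinates serve only to place the sequences. The letters searched, on both strands, were the retinoid receptor half-site in 4 spellings, namely AGGTCA (in 16.3% of all promoters), AGTTCA (in 14%), GGGTCA (in 13.7%) and GGTTCA (in 10.4%), and any 2 of them in direct repeat with 1, 2 or 5 bases between. A half-site stood in 6 of the 10 promoters, against 43.7% of all 32851 promoters of the table, and a direct repeat in 0 of the 10, against 0.588% of all. The promoters shown are those of Cd38, Hic1 and Asb2, the 3 genes whose own highest group mean in each vector came with ATRA. That of Nrip1 is also shown, which held the most half-sites among the 6 genes with a promoter. Half-sites are in capitals, and each sequence runs 5′ to 3′ along its gene's strand.
Cd38, chr5:43868559-43868858, plus strand: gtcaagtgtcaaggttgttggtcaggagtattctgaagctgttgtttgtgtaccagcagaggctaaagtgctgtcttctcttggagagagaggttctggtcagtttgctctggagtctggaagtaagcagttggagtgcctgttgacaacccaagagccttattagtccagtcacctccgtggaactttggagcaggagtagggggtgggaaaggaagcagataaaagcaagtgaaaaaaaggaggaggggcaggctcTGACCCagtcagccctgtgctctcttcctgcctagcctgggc
Hic1 promoter 1, chr11:75170206-75170505, minus strand: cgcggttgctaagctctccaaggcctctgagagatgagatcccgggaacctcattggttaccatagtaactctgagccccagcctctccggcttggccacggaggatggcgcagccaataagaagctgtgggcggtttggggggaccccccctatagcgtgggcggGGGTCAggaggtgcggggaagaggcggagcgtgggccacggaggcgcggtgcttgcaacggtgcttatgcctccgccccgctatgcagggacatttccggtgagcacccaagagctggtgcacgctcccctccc
Asb2 promoter 1, chr12:103355952-103356251, minus strand: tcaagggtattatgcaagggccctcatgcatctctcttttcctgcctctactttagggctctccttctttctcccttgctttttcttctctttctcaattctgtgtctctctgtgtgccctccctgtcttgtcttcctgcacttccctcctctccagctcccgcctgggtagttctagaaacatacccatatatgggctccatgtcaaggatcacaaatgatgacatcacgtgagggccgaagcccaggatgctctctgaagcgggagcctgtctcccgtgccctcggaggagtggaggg
Nrip1 promoter 1, chr16:76373778-76374077, minus strand: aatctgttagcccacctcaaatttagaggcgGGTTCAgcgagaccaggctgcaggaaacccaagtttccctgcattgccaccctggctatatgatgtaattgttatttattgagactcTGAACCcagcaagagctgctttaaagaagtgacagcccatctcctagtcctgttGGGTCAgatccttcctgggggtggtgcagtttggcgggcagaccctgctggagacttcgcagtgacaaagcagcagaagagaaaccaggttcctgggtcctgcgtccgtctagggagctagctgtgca
Cd38 held 1 half-site, read on the opposite strand. Along the gene's strand its letters began at base 9, where the start site is base 1. Hic1 held 1 in each of its promoters, and Nrip1 promoter 1 held 3. Neither Asb2 promoter nor the Ccr9 promoter held one. A match is a description of the letters and was not read as a binding site.

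Libraries held between 16478899 and 80388667 counts (median 35101670). Levels are given in CPM, a gene's count scaled to its library's size after TMM normalisation (trimmed mean of M values), with ± the SD over the libraries of a group. Changes are log2 fold changes with their standard error from edgeR's quasi-likelihood test, fitted to all 10 groups, and a gene is called where its Benjamini-Hochberg adjusted p over the 15699 genes was below 0.05. Of 12 B-lineage markers none was at 0 in any group, and their summed level ran from 4840 to 9910 CPM, as the label of the cells calls for. In IK6 the sum ran from 4840 to 5130 CPM with DMSO and lay above that with every compound, between 5690 and 7070 CPM. In MIG it ran from 5270 to 6740 CPM with DMSO, and each compound's range overlapped that. The part of this sum in the results was not tested. Ikzf1, the Ikaros gene, ran from 382 to 508 CPM over the IK6 groups and from 228 to 357 CPM over the MIG groups, in counts that do not separate IK6 from the cells' own transcript. Ribosomal protein genes took 15.71% of counts in MIG DMSO replicate 3, 15.82% in MIG carbacyclin replicate 4 and 12.75% in MIG bexarotene replicate 3, above 12% only in these 3 libraries. In bulk RNA, more cells with a transcript and more transcript per cell cannot be told apart.

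**Figure D1:**
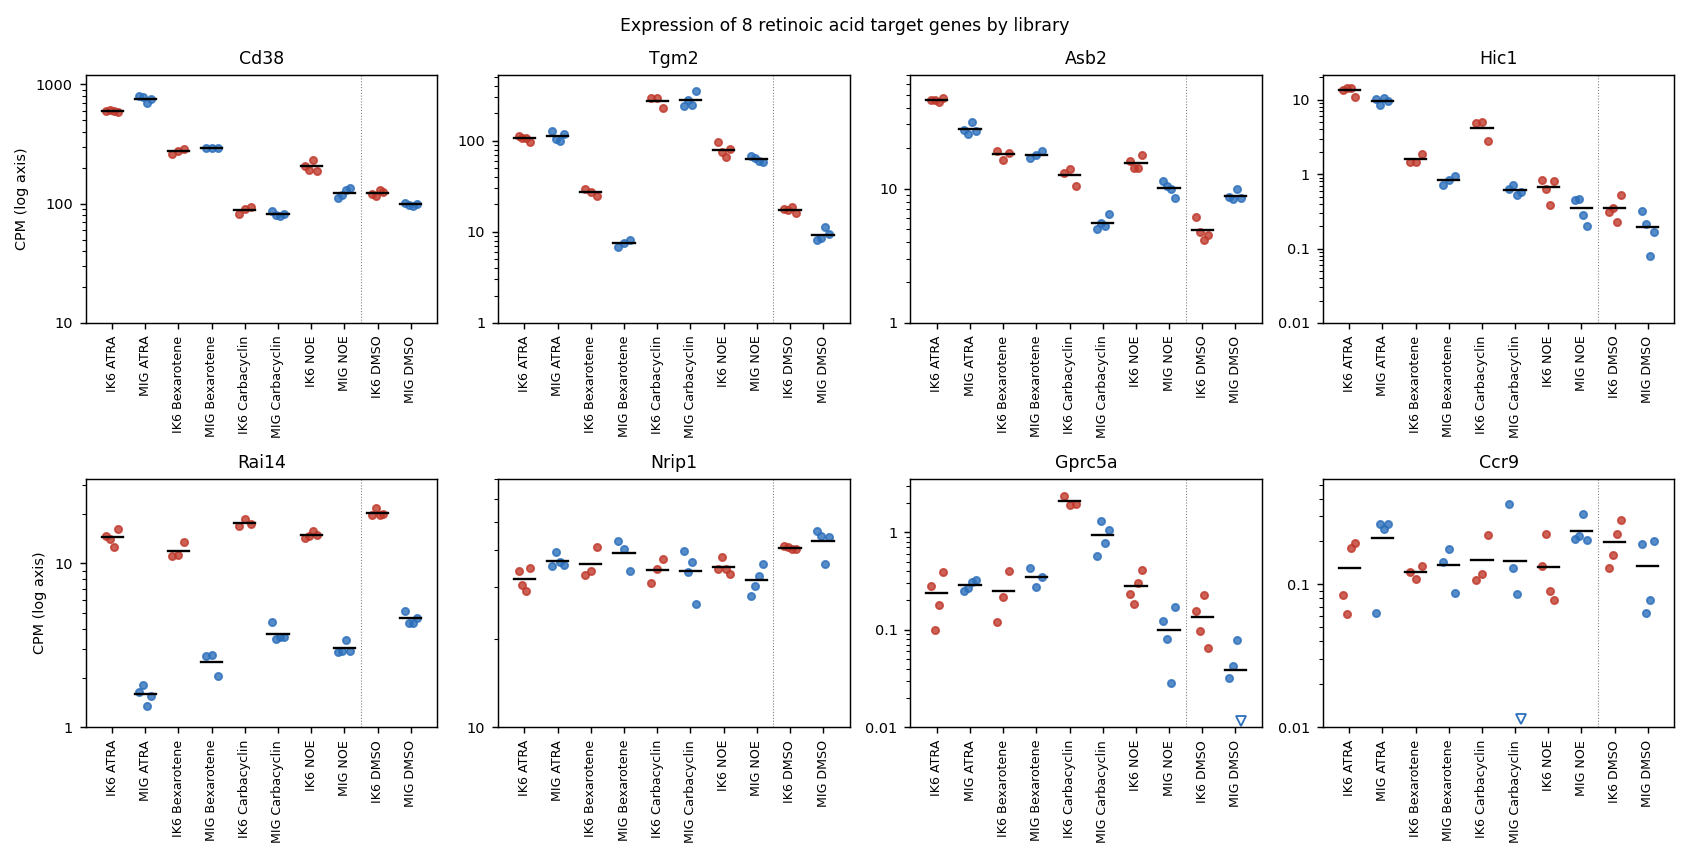
Levels of the 8 genes in CPM on a log axis, 1 point per library (IK6 red, MIG blue) with the group mean as a black bar, and open triangles for libraries with 0 counts. Cd38 was highest with ATRA (means of 600.3 CPM in IK6 and 762 CPM in MIG), Tgm2 with carbacyclin (273 and 281 CPM), and Rai14 was higher in IK6 than in MIG under every treatment.

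With ATRA, 4 of the 8 genes rose and 2 fell in IK6, and 5 rose and 1 fell in MIG, against a background in which 43.6% of all tested genes were called in IK6 and 41.8% in MIG, counting both directions, as do the backgrounds that follow. Cd38, Tgm2, Asb2 and Hic1 rose in both vectors, Gprc5a rose in MIG, Rai14 fell in both, and Nrip1 fell in IK6. The median log2 fold change of the 8 genes was 1.44 in IK6 and 2.24 in MIG, where the medians of all tested genes were 0.02 and -0.01. Bexarotene raised 4 and lowered 1 in IK6 (background 41.8%), and raised 4 and lowered 1 in MIG (38.1%). With carbacyclin 4 rose and 1 fell in IK6 (39.6%), while 3 rose and 4 fell in MIG (48%). With NOE 5 rose and 1 fell in IK6 (40.9%), while 2 rose and 2 fell in MIG (44.9%). A call alone was thus common in each of these comparisons, and the sizes below carry more of the description. The 4 compounds were each set against the same DMSO libraries of their vector.

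CD38 is a surface enzyme that consumes NAD and makes the calcium messenger cyclic ADP-ribose, and it marks several stages of lymphocytes. Cd38 (ENSMUSG00000029084) read 597.6, 616.8, 604.2 and 582.4 CPM in the 4 IK6 ATRA libraries, against 120.7, 115.7, 130.2 and 125.6 CPM in IK6 DMSO. In MIG it read 807.9, 781.9, 702.1 and 756.9 CPM with ATRA, against 102.2, 97.79, 95.93 and 98.59 CPM with DMSO. All ATRA libraries lay far above all DMSO libraries, and the MIG ATRA libraries all lay above the IK6 ones. The log2 fold change was 2.29 ± 0.0663 in IK6 (adjusted p = 1.21e-23) and 2.95 ± 0.0682 in MIG (adjusted p = 1.58e-26).
Bexarotene gave Cd38 levels of 262.5, 275.1 and 290.3 CPM in IK6 and 292.9, 293.2 and 295.9 CPM in MIG. These libraries lay between DMSO and ATRA without overlap on either side, with log2 fold changes over DMSO of 1.17 ± 0.0681 in IK6 and 1.58 ± 0.0685 in MIG (adjusted p = 4.06e-15 and 1.81e-18). NOE gave 207.7, 191.2, 232.8 and 189.8 CPM in IK6 and 112.3, 117.9, 129.3 and 136.6 CPM in MIG. Its rise over DMSO was called in both vectors, at 0.74 ± 0.0638 in IK6 and 0.33 ± 0.0638 in MIG (adjusted p = 1.81e-11 and 6.53e-05).
Carbacyclin was the 1 compound with which Cd38 fell. It read 82.41, 91.14 and 93.41 CPM in IK6 and 86.24, 79.75, 78.74 and 82.00 CPM in MIG, below every DMSO library of the same vector. The fitted log2 fold change was -0.47 ± 0.0695 in IK6 and -0.27 ± 0.0639 in MIG (adjusted p = 1.57e-06 and 6.38e-04). Ordered by mean, Cd38 ran from MIG carbacyclin through IK6 carbacyclin, MIG DMSO, IK6 DMSO, MIG NOE, IK6 NOE, IK6 bexarotene, MIG bexarotene and IK6 ATRA to MIG ATRA. Among neighbours in that order, the library ranges overlapped between the 2 carbacyclin groups and between IK6 DMSO and MIG NOE.

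CCR9 is the chemokine receptor that, with the integrin α4β7, directs lymphocytes to the small intestine, and retinoic acid induces it in T cells. Ccr9 (ENSMUSG00000029530) was near the floor in these cells, with group means from 0.122 CPM in IK6 bexarotene to 0.235 CPM in MIG NOE, and was called in 0 of the 19 comparisons with edgeR or DESeq2; at an unadjusted p below 0.05 edgeR gave 2, the ATRA and NOE interactions (-1.53 and -1.48). A library held 0 to 13 counts of Ccr9. Changes inside the following 95% intervals remained compatible with the data. The interval for ATRA over DMSO, on the log2 scale, ran from -1.86 to 0.16 in IK6 and from -0.42 to 1.78 in MIG. In the annotation Ccr9 shares exonic bases with Slc6a20a, Gm17200 and AC165425.1, each at 0.112 CPM or less in every group. Reads from Ccr9 and these genes may have been shared.

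GPRC5A is an orphan receptor first described as a retinoic acid-induced gene in epithelial cells. Gprc5a (ENSMUSG00000046733) was highest with carbacyclin, reading 2.358, 1.913 and 1.967 CPM in IK6 and 0.5756, 1.32, 0.7779 and 1.051 CPM in MIG. DMSO libraries read 0.1561, 0.09636, 0.2247 and 0.06537 CPM in IK6 and 0.03209, 0.04237, 0.07838 and 0 CPM in MIG. No carbacyclin library overlapped a DMSO library. On the log2 scale the fold change with carbacyclin was 3.91 ± 0.356 in IK6 (adjusted p = 8.32e-11) and 4.59 ± 0.491 in MIG (adjusted p = 1.85e-09). The MIG DMSO libraries held 5 Gprc5a counts in all, so every fold against them rests on those few reads.
ATRA gave Gprc5a means of 0.239 ± 0.127 CPM in IK6 and 0.288 ± 0.0349 CPM in MIG, and bexarotene 0.247 ± 0.143 and 0.351 ± 0.0795 CPM. These 4 levels were alike in size, and the rises were called only in MIG, where DMSO was lowest (log2 fold changes 2.83 ± 0.641 with ATRA and 3.07 ± 0.627 with bexarotene, adjusted p = 5.25e-04 and 1.77e-04). In IK6 the same differences were 0.59 ± 0.477 and 0.82 ± 0.512 (adjusted p = 0.338 and 0.208). Gprc5a passed the low-count filter only with other groups included. With the compared groups only, it was left untested for ATRA and bexarotene against DMSO in both vectors. The difference between the vectors did not pass the test for either compound (adjusted p = 0.0912 and 0.14). The rise with NOE in IK6 (1.09 ± 0.439, adjusted p = 0.0468) was lost under 11 alternatives, with values from 0.77 to 1.16 and adjusted p over all its alternatives from 0.0219 to 0.244. Among them were DESeq2 (1.07), the replicate block (1.06), and leaving out IK6 DMSO replicate 1, 2 or 4 or IK6 NOE replicate 1, 3 or 4. In MIG NOE gave 1.32 ± 0.754 (adjusted p = 0.159).

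Transglutaminase 2 crosslinks proteins and is a long-known retinoic acid-induced gene of macrophages and leukaemic cells. Tgm2 (ENSMUSG00000037820) read 113.1, 107.8, 106.1 and 98.03 CPM with ATRA in IK6, against 17.72, 17.41, 18.85 and 16.12 CPM with DMSO. The MIG libraries read 128.5, 103.6, 99.03 and 117.5 CPM with ATRA, against 8.184, 8.453, 11.21 and 9.517 CPM with DMSO. The ATRA levels of the vectors overlapped, while the DMSO level was 1.88-fold higher in IK6, with means of 17.5 ± 1.12 CPM in IK6 and 9.34 ± 1.37 CPM in MIG. The log2 fold change with ATRA was 2.60 ± 0.124 in IK6 and 3.59 ± 0.132 in MIG (adjusted p = 6.29e-18 and 7.09e-21).
The highest Tgm2 levels came with carbacyclin and not with a retinoid. They were 298.2, 293.6 and 227.9 CPM in IK6 and 241.2, 282.9, 245.7 and 355.6 CPM in MIG, all above the highest ATRA library. The fitted log2 fold change over DMSO was 3.96 ± 0.134 in IK6 (15.6-fold) and 4.92 ± 0.138 in MIG (30.3-fold), with adjusted p = 1.35e-21 and 5.05e-24. NOE gave 97.7, 75.47, 66.02 and 80.24 CPM in IK6 and 67.96, 65.17, 60.38 and 58.8 CPM in MIG, a log2 rise of 2.19 ± 0.122 and 2.76 ± 0.128 (adjusted p = 5.12e-16 and 2.5e-18). Carbacyclin was not tested against ATRA.
With bexarotene, Tgm2 read 29.19, 27.54 and 24.89 CPM in IK6, all above the IK6 DMSO libraries (log2 fold change 0.63 ± 0.129, adjusted p = 1.6e-04). In MIG the gene read 6.754, 7.611 and 8.2 CPM, which overlapped the DMSO libraries (log2 fold change -0.30 ± 0.142, 95% interval -0.59 to -0.01, adjusted p = 0.0947). The annotation gives Tgm2 370 exonic bases in common with Rprd1b on the opposite strand, which ran from 45.7 to 63.4 CPM over the groups. It also gives 633 exonic bases in common with Gm20412, also on the opposite strand, which averaged 0 CPM in every group. No source used here says whether counting used strand, so reads in those bases cannot be told apart.

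**Figure D2:**
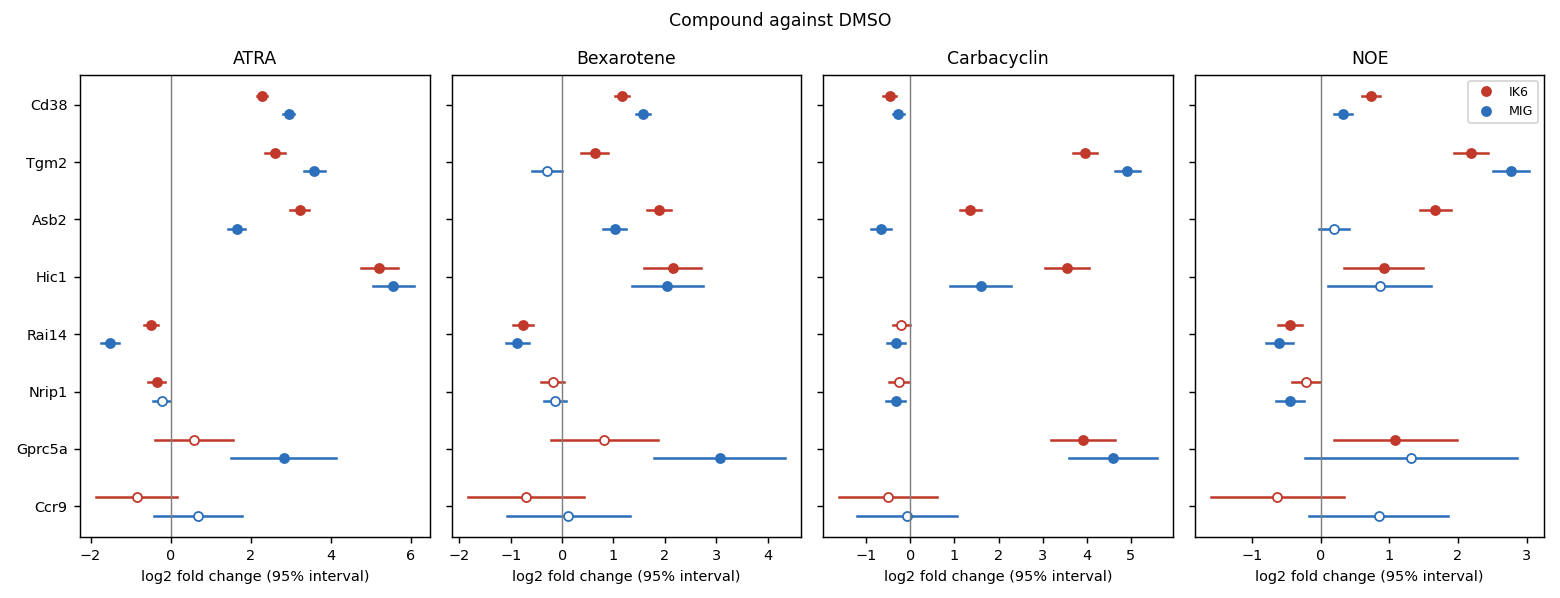
Log2 fold change of each compound over DMSO with its 95% interval, IK6 (red) above MIG (blue), filled where the adjusted p was below 0.05. With carbacyclin Tgm2 lies at 3.96 in IK6 and 4.92 in MIG while Cd38 lies at -0.47 and -0.27, and Asb2 lies on opposite sides of 0 in the 2 vectors (1.36 and -0.66).

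ASB2 is the substrate-binding part of a ubiquitin ligase that marks filamins for degradation, and was found as a retinoic acid-induced gene in promyelocytic leukaemia cells. Asb2 (ENSMUSG00000021200) read 45.56, 46.03, 44.07 and 47.09 CPM with ATRA in IK6, against 6.194, 4.754, 4.12 and 4.511 CPM with DMSO. MIG libraries held 27.52, 25.52, 31.27 and 26.76 CPM with ATRA, against 8.665, 8.305, 9.875 and 8.467 CPM with DMSO. IK6 was thus below MIG without overlap in DMSO and above it without overlap in ATRA. On the log2 scale the fold change with ATRA was 3.22 ± 0.112 in IK6 and 1.65 ± 0.106 in MIG (adjusted p = 1.42e-21 and 1.43e-14).
Bexarotene gave 19.18, 16.34 and 18.32 CPM in IK6 and 16.94, 17.66 and 19.06 CPM in MIG, so that Asb2 reached 17.9 CPM on average in both vectors. The log2 fold change over DMSO was 1.88 ± 0.116 in IK6 and 1.02 ± 0.112 in MIG (adjusted p = 1.45e-14 and 7.07e-09). Carbacyclin gave 13.1, 13.98 and 10.54 CPM in IK6 and 4.971, 5.569, 5.251 and 6.435 CPM in MIG. Asb2 rose in IK6 (1.36 ± 0.117, adjusted p = 2.22e-11) and fell in MIG (-0.66 ± 0.111, adjusted p = 8.71e-06), and neither set of libraries overlapped its DMSO libraries. With NOE Asb2 read 16.09, 14.19, 14.14 and 17.74 CPM in IK6 (log2 fold change 1.67 ± 0.109, adjusted p = 2.71e-14), and 11.33, 10.41, 9.96 and 8.569 CPM in MIG, where it overlapped DMSO (0.20 ± 0.107, adjusted p = 0.134).

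HIC1 is a transcriptional repressor and tumour suppressor that retinoic acid induces in intestinal immune cells. Hic1 (ENSMUSG00000043099) read 13.62, 14.61, 14.41 and 11.09 CPM with ATRA in IK6, against 0.3123, 0.3533, 0.2247 and 0.523 CPM with DMSO. In the MIG groups it read 10.16, 8.429, 10.5 and 9.8 CPM with ATRA, against 0.3209, 0.2119, 0.07838 and 0.1693 CPM with DMSO. The 37.2-fold difference in IK6 and 47.3-fold difference in MIG were the largest ATRA folds among the 8 genes, from DMSO libraries of 2 to 24 counts each. The fitted log2 fold change was 5.22 ± 0.222 in IK6 and 5.56 ± 0.253 in MIG (adjusted p = 3.22e-19 and 1.84e-18).
Carbacyclin separated the vectors for Hic1, which read 4.851, 5.004 and 2.783 CPM in IK6 and 0.6279, 0.7107, 0.5186 and 0.5734 CPM in MIG. On the log2 scale the fold change over DMSO was 3.56 ± 0.241 in IK6 and 1.59 ± 0.336 in MIG (adjusted p = 7.75e-14 and 1.9e-04). Bexarotene gave 1.438, 1.475 and 1.877 CPM in IK6 and 0.7223, 0.8435 and 0.9528 CPM in MIG, log2 rises of 2.15 ± 0.27 and 2.05 ± 0.339 (adjusted p = 8.03e-08 and 1.01e-05). With NOE the means were 0.668 ± 0.206 CPM in IK6 and 0.35 ± 0.128 CPM in MIG. The difference from DMSO was called in IK6 (0.91 ± 0.28, adjusted p = 0.00845; 0.0503 without IK6 NOE replicate 4, in a range of 0.00217 to 0.0503 over its alternatives) and missed the threshold in MIG (0.86 ± 0.366, adjusted p = 0.0553).

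NRIP1, also called RIP140, is a corepressor that ligand-bound nuclear receptors recruit, and retinoic acid induces its gene in several cell types. Nrip1 (ENSMUSG00000048490) kept a narrow range, with group means from 31.7 to 43 CPM over all 10 groups. With ATRA it read 34.03, 30.4, 29.06 and 34.83 CPM in IK6, against 41.38, 41.14, 40.38 and 40.29 CPM with DMSO. The MIG values were 35.51, 39.39, 36.61 and 35.55 CPM with ATRA, against 46.73, 44.89, 35.82 and 44.44 CPM with DMSO. The IK6 groups did not overlap, and the MIG groups overlapped through DMSO replicate 3. The log2 fold change was -0.35 ± 0.101 in IK6 (adjusted p = 0.00537) and -0.23 ± 0.101 in MIG (adjusted p = 0.0733). Without MIG DMSO replicate 3, a library of high ribosomal protein share, the MIG value was -0.30 and passed (adjusted p = 0.0217, in a range of 3.41e-06 to 0.243 over the alternatives).
Nrip1 also fell in MIG with carbacyclin (-0.34 ± 0.101, adjusted p = 0.0064) and NOE (-0.44 ± 0.101, adjusted p = 5.25e-04). The carbacyclin call was lost without MIG carbacyclin replicate 4, at -0.22, with scaling by library totals only, at -0.32, and with the compared groups only, at -0.34. In IK6 the difference was -0.25 ± 0.109 with carbacyclin and -0.22 ± 0.1 with NOE, which missed the threshold (adjusted p = 0.068 and 0.085), although every library of both lay below the IK6 DMSO libraries. Both passed with the ribosomal protein share as a covariate (-0.27 and -0.19), without the 3 libraries of high ribosomal protein share (-0.26 and -0.24) and with the compared groups only (-0.27 and -0.24), and carbacyclin also without IK6 carbacyclin replicate 3 (-0.32). With bexarotene the difference was -0.18 ± 0.109 in IK6 and -0.14 ± 0.109 in MIG (adjusted p = 0.191 and 0.336), and it passed in IK6 without those 3 libraries (-0.20) and with the compared groups only (-0.19), and in MIG with the covariate (-0.23).

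RAI14, ankycorbin, is an actin-bundling protein first described as a retinoic acid-induced gene in retinal pigment epithelium. Rai14 (ENSMUSG00000022246) fell with ATRA in both vectors. With ATRA it read 14.75, 14.08, 12.65 and 16.3 CPM in IK6, against 19.75, 21.84, 19.83 and 19.98 CPM with DMSO. In MIG, it stood at 1.636, 1.804, 1.352 and 1.544 CPM with ATRA, against 5.103, 4.343, 4.35 and 4.64 CPM with DMSO. No ATRA library overlapped DMSO in its vector, and the log2 fold change was -0.50 ± 0.0844 in IK6 and -1.52 ± 0.111 in MIG (adjusted p = 1.17e-05 and 3.69e-13).
Rai14 fell with bexarotene by 0.76 ± 0.0936 in IK6 and 0.88 ± 0.111 in MIG on the log2 scale (adjusted p = 4.96e-08 and 1.08e-07). It fell with NOE by 0.45 ± 0.084 in IK6 and 0.60 ± 0.0987 in MIG (adjusted p = 4.77e-05 and 6.43e-06). With carbacyclin the change was -0.20 ± 0.0911 in IK6, which missed the threshold (adjusted p = 0.077), and -0.33 ± 0.0981 in MIG (adjusted p = 0.00647). The IK6 value passed under 4 alternatives, at -0.21 to -0.22, and the MIG call was lost with the compared groups only, at -0.32. The difference between the vectors was 0.12 ± 0.133 (adjusted p = 0.72).

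Per kilobase of annotated exon, which allows genes to be set beside each other, the ATRA level of Cd38 was 154 CPM in IK6 and 196 CPM in MIG. On that scale Tgm2 reached 23.1 and 24.3 CPM, Asb2 12.9 and 7.84 CPM, Hic1 3.58 and 2.59 CPM, Nrip1 2.8 and 3.21 CPM, and Rai14 1.71 and 0.187 CPM. Cd38 was therefore the most abundant of the 8 transcripts with ATRA. With carbacyclin it was Tgm2, with 59.3 CPM per kilobase in IK6 and 61 CPM in MIG, beside 22.9 and 21 CPM for Cd38.

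Bexarotene was compared with ATRA directly in each vector, as the 2 retinoids of the series. All 4 compounds were given at the same labelled dose of 1 µM. In IK6 5 of the 8 genes were lower and 0 higher (background 21.9% called), and in MIG 4 were lower and 1 higher (23.6%). Cd38, Tgm2, Asb2 and Hic1 were lower with bexarotene in both vectors. The largest difference was that of Tgm2 in MIG, at 7.52 ± 0.727 CPM with bexarotene and 112 ± 13.4 CPM with ATRA (log2 fold change -3.90 ± 0.15, adjusted p = 5.7e-20). In IK6 Tgm2 averaged 27.2 ± 2.17 CPM with bexarotene and 106 ± 6.23 CPM with ATRA (-1.97 ± 0.134, adjusted p = 2.31e-13).
Hic1 differed by -3.07 ± 0.207 in IK6 and -3.52 ± 0.223 in MIG, and Cd38 by -1.12 ± 0.0703 and -1.38 ± 0.0709. Asb2 differed by -1.34 ± 0.112 in IK6 and -0.63 ± 0.111 in MIG. Rai14 was higher with bexarotene in MIG (0.64 ± 0.124, adjusted p = 1.61e-04) and lower in IK6 (-0.27 ± 0.0935, adjusted p = 0.0366), and the IK6 call was lost under 8 alternatives, with values from -0.28 to -0.20. Among them were the replicate block (-0.26) and leaving out IK6 ATRA replicate 1, 2 or 4 or IK6 bexarotene replicate 1 or 2. For Nrip1, Gprc5a and Ccr9 no difference was called in either vector. The interval for Nrip1 ran from -0.06 to 0.39 in IK6 and from -0.14 to 0.31 in MIG, and that for Gprc5a from -0.73 to 1.19 and from -0.64 to 1.13.

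**Figure D3:**
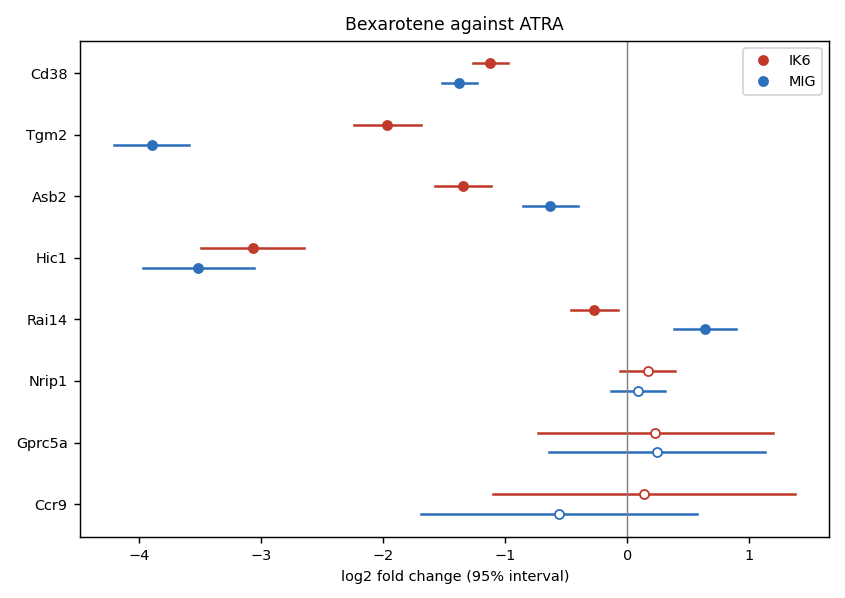
Log2 fold change of bexarotene over ATRA with its 95% interval, IK6 (red) above MIG (blue), filled where the adjusted p was below 0.05. Tgm2 and Hic1 lie farthest below 0, at -1.97 and -3.07 in IK6 and at -3.90 and -3.52 in MIG.

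IK6 was set against MIG within each treatment, which compares cells that carry the dominant-negative Ikaros form with cells that carry the vector without it. Since separate transductions are not documented, an effect of IK6 and a difference between the transduced lines cannot be told apart. Of the 8 genes 3 were higher and 1 lower with ATRA (background 40.9%), 3 and 0 with bexarotene (21%), 4 and 0 with carbacyclin (32.2%), 6 and 0 with NOE (32.6%), and 3 and 1 with DMSO (26%). Rai14 was higher in IK6 under every treatment, with no overlap between the vectors. It averaged 20.4 ± 0.998 CPM in IK6 and 4.61 ± 0.357 CPM in MIG with DMSO (log2 fold change 2.14 ± 0.0919, adjusted p = 5.52e-19). With ATRA it averaged 14.4 ± 1.52 CPM in IK6 and 1.58 ± 0.189 CPM in MIG, the widest gap (3.16 ± 0.106, adjusted p = 6.04e-22).
In DMSO, Tgm2 was higher in IK6 (0.91 ± 0.126, adjusted p = 5.95e-07), Cd38 slightly higher (0.32 ± 0.0637, adjusted p = 1.84e-04) and Asb2 lower (-0.85 ± 0.112, adjusted p = 2.5e-07). Tgm2 did not differ beyond the spread with ATRA (-0.08 ± 0.115, 95% interval -0.31 to 0.16) or carbacyclin (-0.04 ± 0.123, -0.29 to 0.21), and was higher in IK6 with bexarotene (1.85 ± 0.148, adjusted p = 6.96e-12). Cd38 was lower in IK6 with ATRA (-0.34 ± 0.0632, adjusted p = 3.58e-05) and higher with NOE (0.73 ± 0.0637, adjusted p = 3.3e-11). Hic1 was higher in IK6 with ATRA, bexarotene, carbacyclin and NOE, most with carbacyclin (2.78 ± 0.224, adjusted p = 4.86e-12). With DMSO Hic1 averaged 0.353 CPM in IK6 and 0.195 CPM in MIG, a low-count difference that was not called. It ran from 0.53 to 1.12 when 1 library was left out, and passed without MIG DMSO replicate 1 (1.12). The Hic1 calls with ATRA, bexarotene and NOE, at 0.47 ± 0.159, 0.92 ± 0.258 and 0.87 ± 0.275 (adjusted p = 0.0161, 0.00796 and 0.0131), were each lost without some single libraries. Leaving out MIG ATRA replicate 2 or IK6 ATRA replicate 2 gave 0.40 and 0.43, leaving out IK6 bexarotene replicate 3 gave 0.78, and leaving out MIG NOE replicate 3, IK6 NOE replicate 1 or IK6 NOE replicate 4 gave 0.75, 0.76 and 0.73.
Tgm2 with NOE was also higher in IK6 (0.34 ± 0.115, adjusted p = 0.0219), but not past the threshold without IK6 NOE replicate 1 (0.20) or without MIG NOE replicate 2, 3 or 4 (0.33, 0.29 and 0.31). Gprc5a was higher in IK6 with carbacyclin (1.09 ± 0.267, adjusted p = 0.00169) and NOE (1.53 ± 0.464, adjusted p = 0.00973). The NOE call was lost without IK6 NOE replicate 4 (1.22). With DMSO the Gprc5a difference was 1.76 ± 0.712 and missed the threshold (adjusted p = 0.0671). It rests on 21 pooled counts in IK6 and 5 in MIG. It passed with scaling by library totals only (1.85) and with the ribosomal protein share as a covariate (1.81). It also passed without MIG DMSO replicate 3 (2.16) or IK6 DMSO replicate 4 (2.03). Its adjusted p ran from 0.0384 to 0.226 over the alternatives. With ATRA and bexarotene the differences were -0.47 and -0.49, neither called. Nrip1 was called under none of the 5 treatments, though with the ribosomal protein share as a covariate it passed with ATRA (-0.14), NOE (0.16) and DMSO (-0.18).

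**Figure D4:**
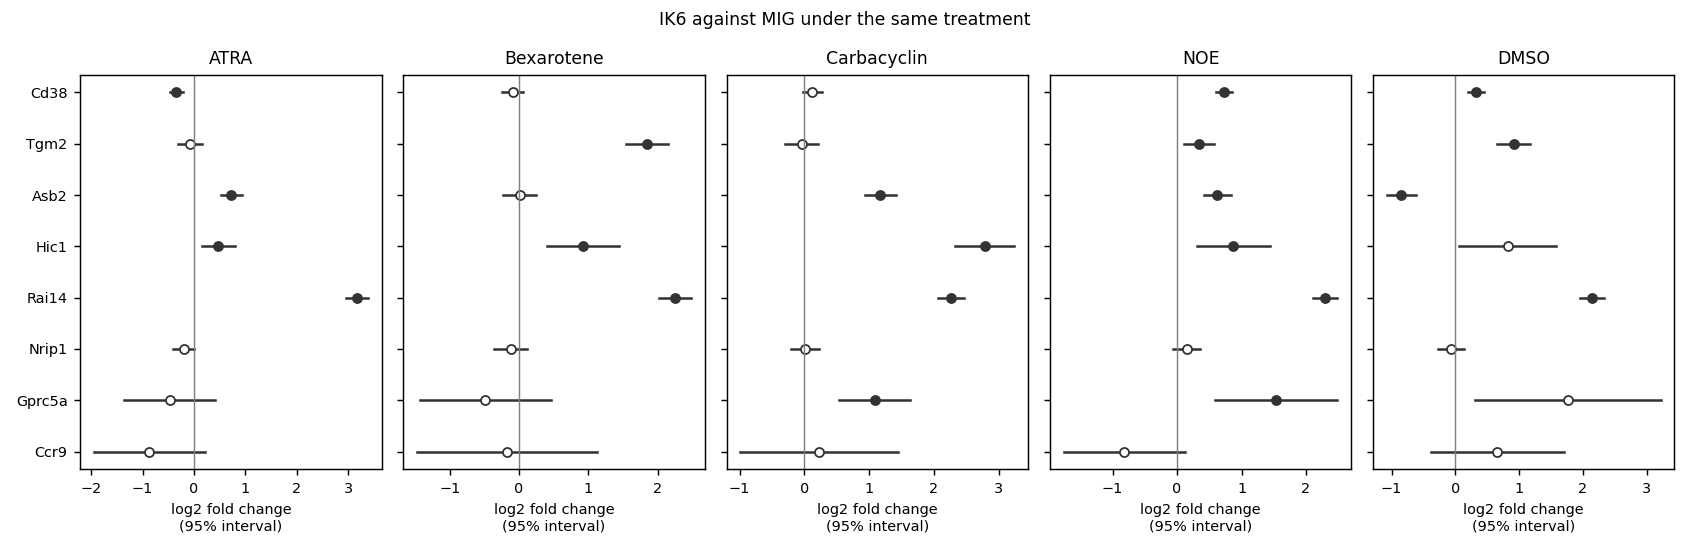
Log2 fold change of IK6 over MIG under each treatment with its 95% interval, filled where the adjusted p was below 0.05. Rai14 lies between 2.14 and 3.16 throughout, and Asb2 lies at 0.72 with ATRA and at -0.85 with DMSO.

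Whether a compound's effect itself differed between the vectors was tested as an interaction, the response in IK6 minus that in MIG. Of the 8 genes 4 passed for ATRA (2 up, 2 down; background 9.78%), 3 for bexarotene (2 up, 1 down; 5.69%), 3 for carbacyclin (2 up, 1 down; 8.83%) and 3 for NOE (2 up, 1 down; 8.82%). Asb2 passed for every compound with a larger response in IK6, by 1.57 ± 0.15 for ATRA, 0.86 ± 0.163 for bexarotene, 2.02 ± 0.162 for carbacyclin and 1.47 ± 0.152 for NOE (adjusted p = 5.33e-09, 8.19e-04, 1.07e-10 and 3.39e-08). Each of these is taken from the same lower Asb2 level of IK6 in DMSO.
Cd38 responded less in IK6 to ATRA (-0.66 ± 0.0898, adjusted p = 3.26e-06) and bexarotene (-0.41 ± 0.097, adjusted p = 0.00752). It responded more to NOE (0.41 ± 0.0899, adjusted p = 0.00214), a call lost when libraries were scaled by their totals only (0.31). Tgm2 responded less in IK6 to ATRA (-0.99 ± 0.171, adjusted p = 1.2e-04) and carbacyclin (-0.96 ± 0.177, adjusted p = 2.49e-04), and more to bexarotene (0.94 ± 0.192, adjusted p = 0.00203). Its smaller response to NOE (-0.58 ± 0.171, adjusted p = 0.0276) did not pass without IK6 DMSO replicate 3, IK6 NOE replicate 2 or IK6 NOE replicate 3, at -0.54, -0.55 and -0.50. These Tgm2 responses are taken from a higher DMSO level in IK6 (17.5 CPM, against 9.34 CPM in MIG). With ATRA Tgm2 averaged 106 CPM in IK6 and 112 CPM in MIG, and with carbacyclin 273 and 281 CPM. The Cd38 responses too are taken from a higher DMSO level in IK6 (123 CPM, against 98.6 CPM in MIG).
Hic1 differed for carbacyclin (1.96 ± 0.467, adjusted p = 0.00453) and Rai14 for ATRA, where it fell less in IK6 (1.02 ± 0.14, adjusted p = 4.25e-06). No interaction was called for Nrip1, Gprc5a or Ccr9, but that of Nrip1 with NOE passed with the ribosomal protein share as a covariate, at 0.34, and that of Gprc5a with bexarotene without IK6 bexarotene replicate 3, at -2.93. For Nrip1 the 4 estimates ran from -0.12 to 0.22, while for Gprc5a they were as far as -2.24 ± 0.838 with ATRA and -2.25 ± 0.853 with bexarotene, with wide intervals.

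**Figure D5:**
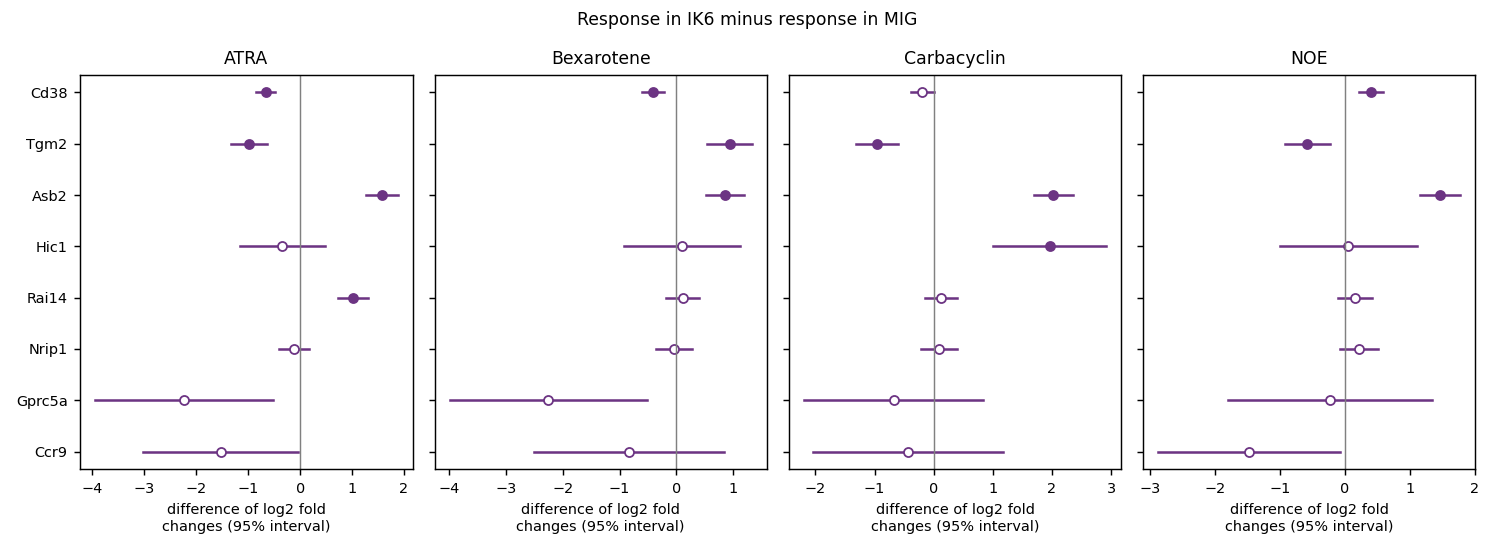
Response in IK6 minus response in MIG for each compound, as a difference of log2 fold changes with its 95% interval, filled where the adjusted p was below 0.05. Asb2 lies above 0 for every compound (0.86 to 2.02), and Tgm2 lies below 0 for ATRA (-0.99), carbacyclin (-0.96) and NOE (-0.58) and above 0 for bexarotene (0.94).

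The other retinoid genes were read from lists, each given by its counts and its median log2 fold change. For all tested genes the medians were 0.02 in IK6 and -0.01 in MIG with ATRA and 0.03 and 0.00291 with bexarotene, and the shares called in either direction were 43.6% and 41.8% with ATRA and 41.8% and 38.1% with bexarotene. Near such shares a list's count is no result about the list. Of 20 genes of retinoid handling, 10 were tested, and with ATRA 3 rose and 1 fell in IK6 and 3 rose and 3 fell in MIG (list medians 0.32 and -0.20). Cyp26a1, which degrades retinoic acid and is a standard target of it, reached 1.62 ± 0.111 CPM with ATRA in IK6, against 0.0833 ± 0.0256 CPM with DMSO, and 4.97 ± 0.527 CPM in MIG, against 0.134 ± 0.0497 CPM. With carbacyclin Cyp26a1 averaged 0.0895 ± 0.084 CPM in IK6 and 0.0969 ± 0.0661 CPM in MIG, near the floor and neither called. Of the 10 tested genes of this list, 2 rose and 1 fell with carbacyclin in IK6 (background 39.6%), and 2 rose and 2 fell in MIG (48%). Dhrs3, which turns retinal back into retinol, read 12.2 ± 1.87 CPM with ATRA in IK6, against 4.06 ± 0.368 CPM, and 6.91 ± 0.505 CPM in MIG, against 3.97 ± 0.225 CPM, both called. Dhrs3 fell with bexarotene (-0.62 ± 0.135 in IK6 and -0.72 ± 0.136 in MIG).
Cyp26c1, a relative of Cyp26a1, was called up in MIG (0.781 ± 0.217 CPM with ATRA, against 0.0597 ± 0.057 CPM), and averaged 0.222 ± 0.128 CPM in IK6, against 0.114 ± 0.0589 CPM. The difference between the vectors' responses did not pass (-2.82 ± 0.936, adjusted p = 0.0512). Fabp5, a carrier of fatty acids and retinoic acid, fell with ATRA in MIG (-0.48 ± 0.16). Rdh10, which oxidises retinol, rose with ATRA in IK6 (0.69 ± 0.0945) and fell in MIG (-0.27 ± 0.102), and the responses differed by 0.97 ± 0.139 (adjusted p = 8.94e-06).
With bexarotene, of the same list, 1 rose and 3 fell in IK6 and 2 rose and 3 fell in MIG (medians -0.05 and -0.34). Of 15 receptors and cofactors, 14 were tested, with 2 up and 3 down in IK6 and 5 up and 1 down in MIG with ATRA (medians 0.02 and 0.13), and 0 up and 3 down in IK6 and 1 up and 2 down in MIG with bexarotene (medians -0.11 and 0.04). Rxra, the RXRα partner, stood at 13.6 ± 0.742 CPM with ATRA in IK6, against 19.2 ± 0.568 CPM with DMSO, and at 3.74 ± 0.294 CPM in MIG, against 4.77 ± 0.687 CPM, both called down. Rarg, the RARγ gene, rose in both vectors, to 1.01 ± 0.0772 CPM in IK6, against 0.576 ± 0.123 CPM, and to 2.6 ± 0.375 CPM in MIG, against 1.16 ± 0.111 CPM. The coactivator genes Ncoa3 and Crebbp rose in MIG by 0.36 ± 0.0776 and 0.42 ± 0.148.

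Of 19 other retinoic acid targets only 8 were tested, with 2 up and 2 down with ATRA in IK6 and the same counts in MIG (medians 0.04 and 0.22), and 1 up and 2 down with bexarotene in each vector (medians -0.27 in IK6 and -0.14 in MIG). For this list, the relatives and the partners, the shares of all tested genes called were again 43.6% in IK6 and 41.8% in MIG with ATRA. With bexarotene they were 41.8% and 38.1%, and counts near these shares are no result about a list. Cyp26a1 and Dhrs3 were the risers with ATRA. Rarres1, a retinoid-induced gene of skin, fell in MIG with ATRA (-0.78 ± 0.179), and the repressor gene Zfp703 fell in both vectors (-0.59 ± 0.143 in IK6 and -0.41 ± 0.15 in MIG). Rarb, the RARβ gene and a standard retinoic acid target, stood at 0.707 ± 0.264 CPM with ATRA in IK6, against 0.557 ± 0.177 CPM, and at 0.771 ± 0.278 CPM in MIG, against 0.505 ± 0.184 CPM, and was not called.
Among 25 relatives of the 8 genes, 20 were tested, with 7 up and 5 down with ATRA in IK6 and 8 up and 4 down in MIG (medians 0.25 and 0.11), and 8 up and 4 down with bexarotene in IK6 and 7 up and 4 down in MIG (medians 0.25 and -0.04). Bst1, the other cyclic ADP-ribose synthase of mice beside Cd38, rose with ATRA by 0.32 ± 0.0914 in IK6 and 0.58 ± 0.0916 in MIG on the log2 scale, less than Cd38, and with bexarotene it was not called. Uaca, which like Rai14 encodes a protein of ankyrin repeats and coiled coils, fell with ATRA by 1.22 ± 0.102 in IK6 and 1.18 ± 0.145 in MIG. The chemokine receptor gene Ccr2 fell with ATRA in both vectors, with a log2 fold change of -1.37 ± 0.103 in IK6 and of -1.74 ± 0.162 in MIG. Asb13 rose by 0.53 ± 0.0987 in IK6 and 0.54 ± 0.0998 in MIG.
Of 15 partners, all tested, 6 rose and 4 fell with ATRA in IK6 and 3 rose and 3 fell in MIG, and with bexarotene 4 rose and 2 fell in IK6 and 2 rose and 3 fell in MIG. The medians were 0.08 in IK6 and -8.11e-04 in MIG with ATRA, and -0.02 and -0.14 with bexarotene. Itgb7, the β7 integrin subunit that works with CCR9 in gut homing, read 12.8 ± 1.21 CPM with ATRA in IK6, against 2.01 ± 0.242 CPM, and 50.6 ± 4.83 CPM in MIG, against 7.52 ± 0.325 CPM, while Ccr9 stayed near the floor. Flna, a filamin of the kind ASB2 targets, rose by 0.61 ± 0.0758 in IK6 and 0.88 ± 0.0762 in MIG. Nampt, of NAD synthesis, fell by 0.28 ± 0.0791 in IK6 and 0.57 ± 0.0794 in MIG, and Parp1, another consumer of NAD, by 0.19 ± 0.0534 and 0.37 ± 0.0535. Nt5e, which acts on extracellular nucleotides, rose by 2.03 ± 0.257 in IK6 and 0.71 ± 0.132 in MIG.

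Markers of other cell types were read beside these results. The summed level of 13 myeloid markers, of which 4 were tested, in IK6 ran from 16.1 to 16.7 CPM under ATRA, from 8.14 to 10.6 CPM under bexarotene, from 13.4 to 17.1 CPM under carbacyclin and from 20.9 to 24.1 CPM under NOE, against 5.75 to 6.9 CPM under DMSO. In MIG it ran from 14.8 to 16.9 CPM under ATRA, from 10.2 to 12.1 CPM under bexarotene, from 8.06 to 12.7 CPM under carbacyclin and from 15.6 to 16.9 CPM under NOE, against 3.64 to 5.18 CPM under DMSO. S100a8 and S100a9 were at 0 in every group, and Elane, Ly6g and Csf3r were at 0 in some. The myeloid sum was thus above DMSO with every compound in both vectors, and its part in the results was not tested.
The summed level of 12 T and NK cell markers, 3 of them tested, ran from 70.9 to 260 CPM over all libraries and was lower with both retinoids than with DMSO in both vectors. Cd3g, Cd4, Cd8a, Cd8b1, Trac and Ncr1 were at 0 in some groups. The sum of 8 stromal and endothelial markers, 3 of them tested, ran from 46.6 to 117 CPM and was above DMSO with every compound in both vectors. Col1a2, Col3a1, Cxcl12 and Kdr were at 0 in some groups, so this sum rests on few genes. The sum of 8 erythroid and megakaryocyte markers, 5 of them tested, ran from 3.85 to 38.6 CPM, with Hba-a1 at 0 in every group but IK6 carbacyclin. Their part in the results was not tested.

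The 8 genes did not share 1 pattern over the 10 groups. As a description over 10 group means, with no p because the groups share their cells of origin, Pearson's r on the log2 (CPM + 1) scale was 0.878 between Cd38 and Asb2, 0.81 between Asb2 and Hic1 and 0.728 between Cd38 and Hic1. Between Cd38 and Tgm2 it was -0.04. Tgm2 gave 0.658 with Gprc5a, which was also highest with carbacyclin, and -0.746 with Nrip1.
Among 9778 genes whose highest group mean was at least 5 CPM, the genes most like Cd38 were Cacnb4, Mavs and Itch (r = 0.965, 0.958 and 0.944). Cacnb4 averaged 5.71 CPM with ATRA in IK6, against 0.607 CPM with DMSO, and 7.98 CPM in MIG, against 0.561 CPM. For Tgm2 they were Myof, Rilpl2 and Rac2 (0.986, 0.964 and 0.955), and Myof averaged 265 CPM with carbacyclin in IK6, against 47.3 CPM with DMSO, and 314 CPM in MIG, against 31.2 CPM. For Asb2 they were Myl12b, Notch2 and Ctss (0.955, 0.922 and 0.918), and for Hic1 they were Smad3, Abca1 and Cd300lf (0.934, 0.927 and 0.922). Abca1 averaged 11.6 CPM with ATRA in IK6, against 0.175 CPM, and 9.3 CPM in MIG, against 0.0458 CPM. For Rai14 they were Ppfibp1, Ctdspl and Pak1 (0.984, 0.983 and 0.981), each with a higher group mean in IK6 than in MIG with ATRA, bexarotene, carbacyclin and DMSO. For Nrip1 they were Asrgl1, Tmem194b and Slfn10-ps (0.945, 0.942 and 0.939), for Gprc5a Timp3 and Gtf2h3 (0.949 and 0.949), and for Ccr9 Tsc1, Zhx3 and Srrm2 (0.897, 0.788 and 0.765). Ccr9 was near the floor, and the library ranges of all its neighbouring groups overlapped. Its r values, the highest among 9778 genes searched, may therefore reflect counting noise.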

How the data were processed

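RNA was sequenced in 37 TruSeq libraries on an Illumina HiSeq, per the labels. The authors deposited raw read counts per gene. Per the submitters' processing notes, BWA 0.5.9, HTSeq and mouse build mm9 were used; no source used here names the strand setting, the counting mode or the annotation.

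All 35290 genes were read, and the 15699 that passed edgeR's expression filter (minimum count 10, total 15) were fitted in 1 model of the 10 groups with edgeR 4.0.16 (R 4.3.3): trimmed mean of M values scaling, robust quasi-likelihood test and Benjamini-Hochberg adjustment, with a threshold of 0.05 and 27 residual degrees of freedom. The 19 comparisons were each compound against DMSO in each vector, IK6 against MIG under each treatment, the 4 interactions, and bexarotene against ATRA in each vector. Standard errors are the log2 fold change divided by the square root of F. The fit was tested on simulated data. Alternatives used DESeq2 1.42.0, other scalings, filters, covariates and samples. Figures were drawn with matplotlib 3.10.9 in Python 3.11.15.

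None of 51 within-group library pairs was a duplicate (chi-square per degree of freedom 2.32 to 242). Replicate numbers are in the labels, with nothing that says they mark a shared culture; same-numbered libraries correlated above 0.1 in every pair only for bexarotene against DMSO in MIG (0.27, 0.227 and 0.623), where the block changed no call of the 8 genes.

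The 8 genes and the lists were chosen with earlier results of these data known. All 8 genes are named, and of each list up to 5 genes with the smallest adjusted p for ATRA in MIG. The 3 genes most like each of the 8 had the highest Pearson r of log2 (CPM + 1) group means, with genes named Gm and a number or ending in Rik left out. Some genes that these rules name are not reported here.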

Additional observations from a re-analysis of the deposited data

Results flagged for a closer look

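In 5 of 56 sets of 4 libraries, 1 library stood apart from the others by Dixon's criterion; chance gives about 1 in 20. Rai14 read 4.396 CPM in MIG carbacyclin replicate 1, 3.424 CPM in MIG NOE replicate 3 and 21.84 CPM in IK6 DMSO replicate 2, each the highest of its group. Ccr9 read 0.06291 CPM in MIG ATRA replicate 1, the lowest of its group, and 0.3113 CPM in MIG NOE replicate 3, the highest.

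A compound's effect differed between the vectors, by edgeR's interaction test, in 13 of 32 cases. Of all tested genes, 9.78% were called for the ATRA interaction, 5.69% for bexarotene, 8.83% for carbacyclin and 8.82% for NOE. For ATRA the response in IK6 minus that in MIG was -0.6639 for Cd38, -0.9933 for Tgm2, 1.57 for Asb2 and 1.02 for Rai14 on the log2 scale. For bexarotene it was -0.4106 for Cd38, 0.9364 for Tgm2 and 0.8581 for Asb2. For carbacyclin it was -0.9567 for Tgm2, 2.022 for Asb2 and 1.962 for Hic1. For NOE it was 0.4082 for Cd38, -0.5754 for Tgm2 and 1.472 for Asb2. The NOE calls of Cd38 and Tgm2 did not hold under every alternative. These 13 differences all use the same DMSO libraries, and those of different compounds are therefore not independent.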

How the results depend on the processing

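No called fold change of the 8 genes changed sign under any alternative run, while some that were not called crossed 0. Each count of members called stayed within 1.5 times its main value. Leaving out 1 library at a time, the members called numbered 6 to 6 for ATRA in IK6, 6 to 7 in MIG, 5 to 5 for bexarotene in both vectors, 5 to 6 for carbacyclin in IK6, 6 to 7 in MIG, 4 to 6 for NOE in IK6 and 4 to 5 in MIG. They numbered 3 to 4, 2 to 3, 4 to 4, 4 to 6 and 4 to 5 for IK6 against MIG with ATRA, bexarotene, carbacyclin, NOE and DMSO, 4 to 4, 3 to 4, 3 to 3 and 2 to 3 for the ATRA, bexarotene, carbacyclin and NOE interactions, and 4 to 5 and 5 to 5 for bexarotene against ATRA in IK6 and MIG. With the ribosomal protein share as a covariate, the genes called over the whole table numbered 5838 (3441 in the model without it) for bexarotene against ATRA in IK6, 5985 (3705) in MIG, 5079 (3298), 7607 (5048) and 6626 (4079) for IK6 against MIG with bexarotene, carbacyclin and DMSO, and 2713 (1536), 2091 (894), 2853 (1386) and 2693 (1385) for the ATRA, bexarotene, carbacyclin and NOE interactions. Fitting the compared groups only gave 5475 for bexarotene against ATRA in IK6, 4521 (7536) for carbacyclin in MIG, 2376 for IK6 against MIG with carbacyclin, and 2581 and 889 for the ATRA and carbacyclin interactions. Without the 3 libraries of high ribosomal protein share, IK6 against MIG with bexarotene gave 4984 and the carbacyclin interaction 2253. The bexarotene interaction gave 562 without IK6 bexarotene replicate 1, and the carbacyclin interaction 2527 without MIG carbacyclin replicate 4; the cause was not tested.

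With the replicate number as a block, 2 of 152 member values lost their call, Rai14 for bexarotene against ATRA in IK6 (-0.2625) and Gprc5a for NOE in IK6 (1.059), and no other member call changed. The numbers share no known culture. Nrip1 gained or lost calls most often, Asb2 with NOE in MIG passed under 3 alternatives (0.25 to 0.28), and Hic1 with NOE in MIG under 7 (0.88 to 1.17). A minimum of 1 CPM in 3 libraries leaves Ccr9 untested. Ccr9 was also untested with the compared groups only in some comparisons, and without some single libraries. Gprc5a was untested with the compared groups only in some comparisons. Low counts limit Ccr9, Gprc5a and the DMSO level of Hic1.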
